A study of Rattus norvegicus with 6 samples.

Results

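Transcripts of 10 circadian clock genes were measured in rat pituitary organ cultures given gonadotropin-releasing hormone (GnRH). The genes are Per1, Per2, Per3, Cry1, Cry2, Bmal1, Dbp, Nr1d1, Nr1d2 and Bhlhe41, chosen by name, and the members were all 15 probe sets that the array annotation assigns to only 1 of these symbols. All 10 genes had a probe set, of 14217 genes named on the array. The treated cultures received GnRH at 10 nM (3 samples, 1 array each) and the control cultures had none (3 samples, 1 array each). The sources used here give no strain, sex, age, length of treatment or clock time of harvest, and no label says whether samples came from separate animals or cultures. The p-values reflect only how far these samples differ among themselves, in part perhaps for technical reasons, and the controls include the split described below. Values are log2 array intensities, and a difference is the GnRH mean minus the control mean over 3 arrays each.

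The circadian clock is a transcriptional feedback loop found in most mammalian cells, the pituitary included. BMAL1 pairs with CLOCK or NPAS2 on E-box sequences and activates the Per and Cry genes, whose proteins return to the nucleus and inhibit that pair. In a second loop the nuclear receptors NR1D1 and NR1D2 repress Bmal1 and the ROR receptors activate it, both through the same response element, while DBP activates D-box genes and BHLHE41 and BHLHE40 repress from E-boxes. Per1 is also known as a gene that hormones and cAMP or calcium signals induce directly, outside the loop.

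The promoters of 4 members are shown. Those of Bhlhe41, Per2 and Bmal1 hold motifs of the kinds through which these genes are known to act on each other. That of Nr1d2 holds only the short AGGTCA, without the bases that precede it in the full response element. Cry2 and Nr1d1, which also had E-box matches, are not shown. The sequences are RefSeq's for the build GRCr8, from 250 bases before to 50 bases after the annotated start of the gene, read on the strand of the gene. They lie at chr4:180569306-180569605 (minus strand) for Bhlhe41, chr9:99496944-99497243 (minus strand) for Per2, chr1:176766078-176766377 (plus strand) for Bmal1 and chr15:9954784-9955083 (plus strand) for Nr1d2. Capitals mark the matches of the motif search described next.
Bhlhe41 promoter: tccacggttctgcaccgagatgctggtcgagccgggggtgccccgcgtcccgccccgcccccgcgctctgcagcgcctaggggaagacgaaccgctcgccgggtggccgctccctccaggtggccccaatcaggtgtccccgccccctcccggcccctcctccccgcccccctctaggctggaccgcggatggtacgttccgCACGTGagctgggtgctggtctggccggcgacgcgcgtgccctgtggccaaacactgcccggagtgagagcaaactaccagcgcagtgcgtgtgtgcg
Per2 promoter: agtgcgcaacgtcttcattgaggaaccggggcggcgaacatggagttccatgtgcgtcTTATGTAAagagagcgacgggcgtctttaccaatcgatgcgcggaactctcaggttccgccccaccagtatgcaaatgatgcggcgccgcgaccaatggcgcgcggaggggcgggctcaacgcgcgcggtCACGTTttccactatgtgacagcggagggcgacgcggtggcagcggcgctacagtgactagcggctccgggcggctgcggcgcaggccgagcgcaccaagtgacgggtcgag
Bmal1 promoter: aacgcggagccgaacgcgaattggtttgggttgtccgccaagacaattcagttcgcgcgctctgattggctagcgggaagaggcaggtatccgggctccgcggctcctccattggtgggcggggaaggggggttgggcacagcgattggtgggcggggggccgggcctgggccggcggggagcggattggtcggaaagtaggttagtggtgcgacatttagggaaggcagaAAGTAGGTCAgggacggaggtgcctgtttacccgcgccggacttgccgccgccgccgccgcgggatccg
Nr1d2 promoter: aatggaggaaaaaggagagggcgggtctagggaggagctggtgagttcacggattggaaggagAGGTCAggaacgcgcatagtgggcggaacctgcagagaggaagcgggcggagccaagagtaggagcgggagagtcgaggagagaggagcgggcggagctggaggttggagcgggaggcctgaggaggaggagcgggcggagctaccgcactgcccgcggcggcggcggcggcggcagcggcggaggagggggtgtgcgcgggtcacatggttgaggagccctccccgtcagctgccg

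Promoters were available for 9 of the 10 genes, and Nr1d1 had a pair of them. Both strands were searched for the E-box CACGTG, the variant E-box CACGTT, the D-box (TTATGTAA or TTACGTAA), the NR1D and ROR response element (AGGTCA directly preceded by AANT), the shorter AGGTCA on its own, and the cAMP response element TGACGTCA. The E-box was in Bhlhe41 and Nr1d1, 2 of 9 genes, and in 6.42% of all 33469 rat promoters of this length. The variant E-box was in Per2, Cry2 and Nr1d1, 3 of 9 genes, against 4.83% of all promoters. The D-box was in Per2 alone, 1 of 9 genes, against 1.01%. The full response element was in Bmal1 alone, against 0.245%, and AGGTCA was in Bmal1, where it overlaps the full element, and in Nr1d2, against 16.2%. The cAMP response element was in 0 of 9 genes and in 1.83% of all promoters. These matches describe letters in a window, not bound sites.

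Control 3 stood apart from the other controls. Controls 1 and 2 had a Pearson correlation of 0.994 over all probe sets, whereas control 3 had 0.983 and 0.986 with them and 0.988 to 0.991 with the GnRH arrays. On its brightest probe set Xist, the RNA of the silenced X chromosome, was at 9.73, 9.16 and 9.49 in the GnRH arrays and 9.77 in control 3, against 3.91 and 3.66 in controls 1 and 2. The Y-linked gene Eif2s3y ran the other way, at 2.42, 2.29 and 2.06 in the GnRH arrays and 2.76 in control 3, against 6.48 and 6.56 in controls 1 and 2. Uty, also Y-linked, did not follow Eif2s3y. Its brighter probe set had 7.41, 7.47 and 7.52 in the GnRH arrays and 7.44 in control 3, against 6.27 and 6.31 in controls 1 and 2. The other Uty probe set had a difference of -0.086. High Xist with low Y-linked signal is the pattern of female tissue and the reverse that of male tissue. On Xist and Eif2s3y, though not on Uty, the arrays looked like different sexes, which the labels do not give. Without control 3, treatment and this split cannot be told apart: every GnRH array lies on one side and both controls on the other. Control 3 lay outside controls 1 and 2 on the side of the GnRH mean in 63.7% of all probe sets. Each member's difference is therefore given with all 3 controls, without control 3 and against control 3 alone; the last assumes that a lone array varies like the GnRH arrays.

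Of the 15 clock probe sets 1 rose with GnRH, 0 fell and 14 did not pass the test (limma, Benjamini-Hochberg adjusted over all 31042 probe sets, threshold 0.05), where 0.464% of all probe sets passed. The gene that rose was Bhlhe41. The median difference of the clock probe sets was 0.016, with 9 above 0 and 6 below, and the median of all probe sets was -0.025. At an unadjusted p under 0.05 there were 4 clock probe sets, all higher with GnRH, where 12.3% of all probe sets reached it and 6.6% were higher. The groups did not overlap in 4 of 15 (26.7%), against 16.7% of all probe sets, and these were the same 4 probe sets, those of Bhlhe41, Per1 and Cry1 and the dimmest of the 3 Nr1d2 probe sets. Without control 3 the test was passed by 3 clock probe sets, all higher with GnRH, where 7.44% of all probe sets passed and 4.95% were higher. Against control 3 alone it was passed by 0 of 15 with limma, where 0.854% of all passed, and 4 had an unadjusted p under 0.05, where 11.1% of all did.

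**Figure D1:**
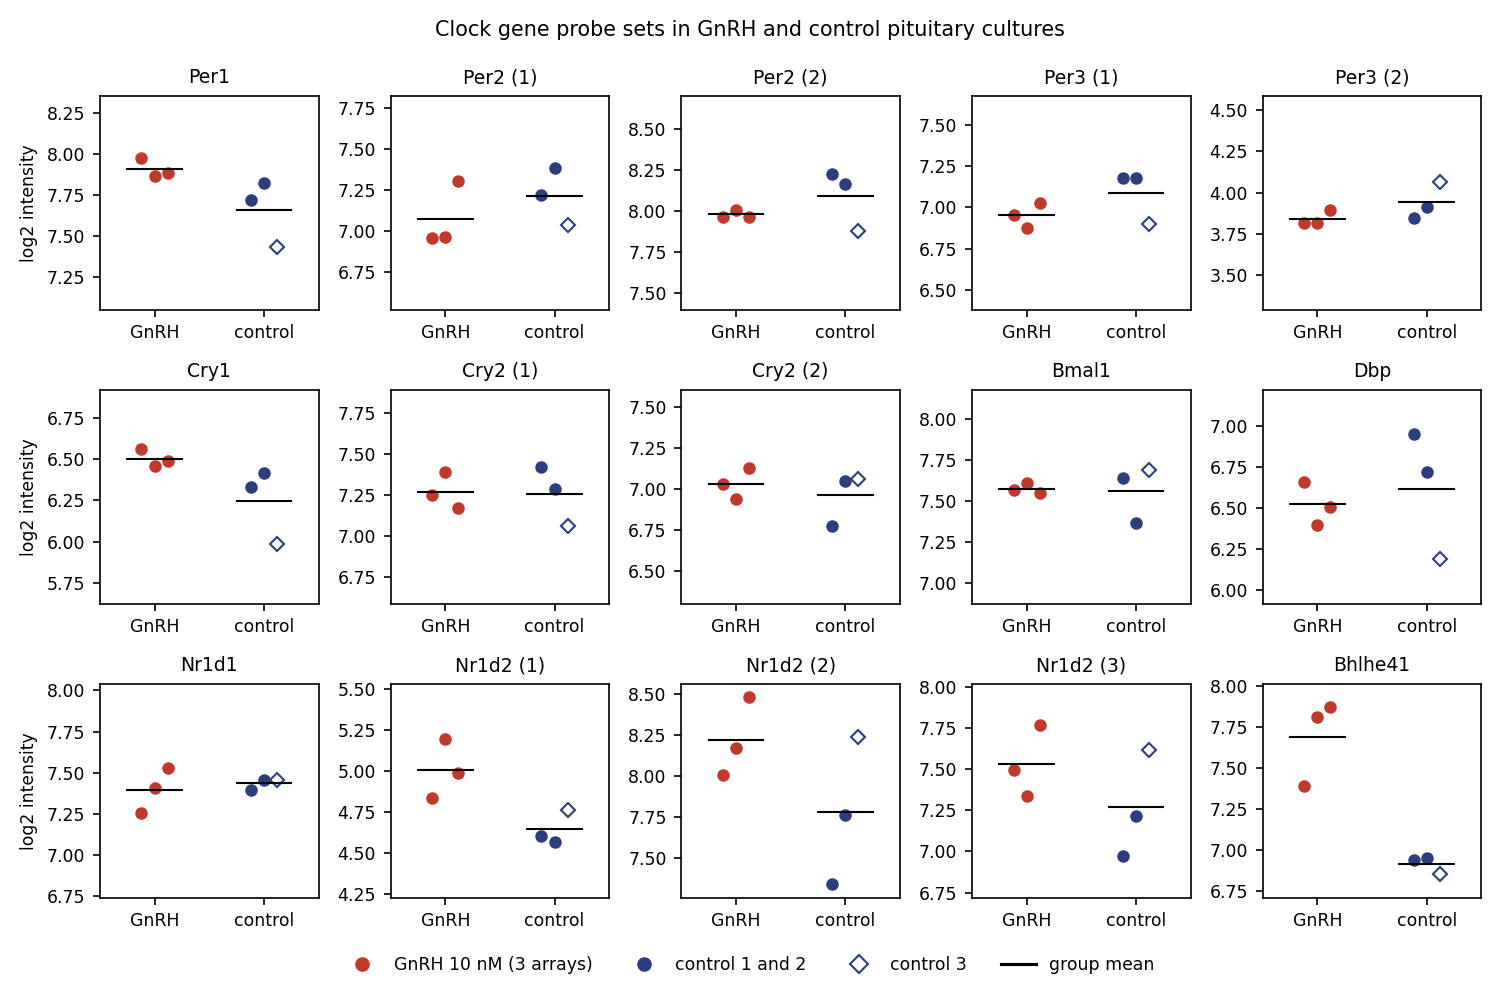
Log2 intensity of the 15 clock probe sets, one panel each, with GnRH arrays in red on the left, controls 1 and 2 as filled blue points and control 3 as an open diamond on the right; lines are group means and every panel spans the same log2 range. Bhlhe41 has all GnRH arrays at 7.39 or above and all controls at 6.95 or below, while control 3 is apart from controls 1 and 2 in Per1, Cry1 and Dbp. On the brightest Nr1d2 probe set all 3 controls are spread, at 7.34, 7.76 and 8.24.

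**Figure D2:**
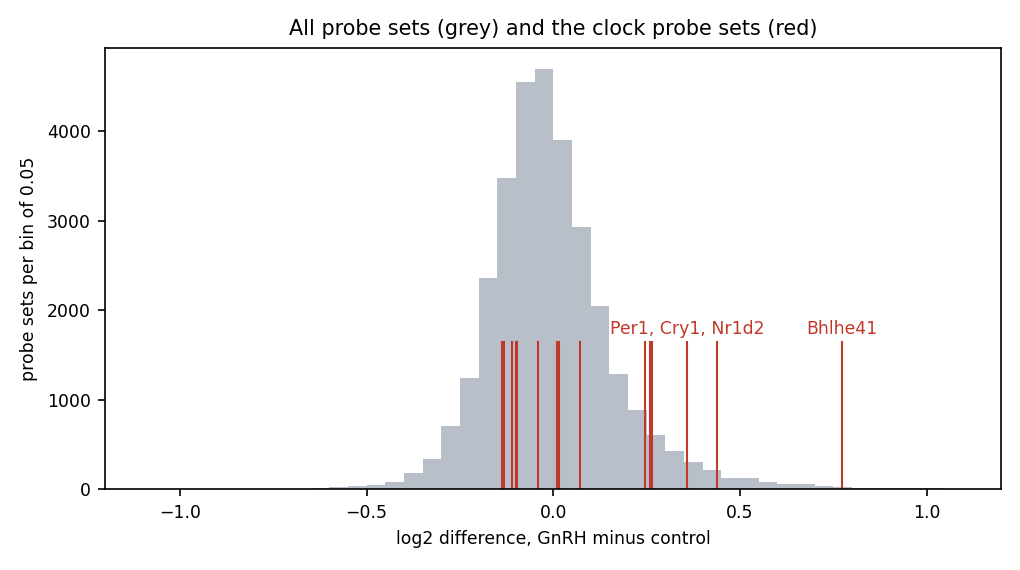
Distribution of the log2 difference (GnRH minus control) over all probe sets in bins of 0.05 (grey bars), with the 15 clock probe sets as red lines; 29 probe sets beyond 1.2 either way are outside the axis. Bhlhe41 at 0.77 lies in the upper tail, Per1, Cry1 and Nr1d2 lie between 0.25 and 0.44, and the other clock probe sets lie between -0.14 and 0.071.

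Bhlhe41, the E-box repressor whose own promoter window holds the E-box shown in capitals above, was the clock gene that rose. Its probe set (1368511_at) had log2 values of 7.39, 7.81 and 7.87 in the GnRH arrays, against 6.94, 6.95 and 6.85 in controls 1, 2 and 3. The lowest GnRH array was above the highest control, and the 3 controls lay closer together than the 3 GnRH arrays. The means were 7.69 ± 0.26 with GnRH and 6.92 ± 0.055 in controls (SD, n = 3 each), a rise of 0.77 ± 0.12 (SE) or 1.71-fold, with a 95% interval of 0.50 to 1.05 (limma adjusted p = 0.0314). It ranked 86 of 31042 by p-value. Without control 3 the rise was 0.74 (limma adjusted p = 0.00974), and against control 3 alone the difference was 0.84 (limma adjusted p = 0.0784). The call was also lost without control 1 (difference 0.79, limma adjusted p = 0.0935), control 2 (0.79, 0.109), GnRH 2 (0.71, 0.182) or GnRH 3 (0.68, 0.0975), with cyclic loess (0.75, 0.0530) and with 16 added to each intensity (0.70, 0.0657).

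Bhlhe40, the close relative of Bhlhe41 with the same E-box repressor role, did not pass the test. It had 8.66, 8.47 and 8.44 in the GnRH arrays, against 8.53, 8.57 and 8.83 in controls 1, 2 and 3, a difference of -0.12 ± 0.11 (SE) with a 95% interval of -0.36 to 0.12 (limma adjusted p = 0.680). The difference was -0.029 without control 3 and -0.31 against control 3 alone. Taken within each array, the log2 ratio of Bhlhe41 to Bhlhe40 differed by 0.90 between GnRH and control arrays, with all 3 GnRH arrays above all 3 controls (exact permutation test, 2-sided, p = 0.1, the smallest that 3 against 3 allows). The ratio differed by 0.77 without control 3 and by 1.15 against control 3 alone. This pair was chosen with the values known.

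The 4 genes whose 6 values lay closest to those of Bhlhe41 were Gaa, P3h4, Slc24a3 and Npdc1. Closeness was the root mean square difference over the 6 arrays of log2 values centred on each probe set's mean, among 2453 probe sets of other named genes with an SD of at least 0.5 times that of Bhlhe41. Gaa, the lysosomal acid alpha-glucosidase, was nearest at 0.035, with 10.08, 10.44 and 10.61 in the GnRH arrays, against 9.61, 9.65 and 9.50 in controls. P3h4, a partner of collagen-modifying enzymes, lay at 0.10, the sodium, calcium and potassium exchanger Slc24a3 at 0.11 and Npdc1, a neural proliferation control protein, at 0.12.

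Some markers of pituitary cell types also differed between groups. Of 62 probe sets of 42 genes in 11 marker lists 4 passed the test, where 0.464% of all probe sets did. They were those of Gnrhr (both), Nr5a1 and Drd2, all higher with GnRH. The gonadotrope hormone gene Fshb went the other way, at -0.30 and -0.36 on its probe sets, neither past the test. These had -0.58 and -0.70 without control 3 and 0.26 and 0.30 against control 3 alone. Lhb and Cga had 0.34 and 0.18 with all controls, and -0.045 and -0.0072 against control 3 alone. Intensities of the brightest probe set of each gene were summed per list. The sum of the 5 gonadotrope markers was 14646 to 18129 in GnRH arrays, against 12965 to 16579 in controls, and that of the lactotrope markers Prl and Drd2 was 18618 to 19312, against 14750 to 18397, without overlap. Control 3 was the highest control in both lists, and its lactotrope sum of 18397 compares with 14750 and 15257 in controls 1 and 2. Prl, the brighter lactotrope marker, had a difference of 0.33 without control 3 and 0.036 against control 3 alone, where Drd2 had 0.54 and 0.58. The 3 somatotrope markers summed to 17926.5 to 18918.5 in GnRH arrays, against 19174.4 to 19869.5 in controls, also without overlap. Control 3 was the lowest of those controls. Gh1, by far the brightest of the 3 genes, had a difference of -0.080 (limma adjusted p = 0.729). Pou1f1 and Ghrhr went the other way, with 0.58 and 0.33 on the Pou1f1 probe sets and 0.16 and 0.018 on those of Ghrhr, none past the test. The 5 folliculostellate and glial markers summed to 811 to 993 in GnRH arrays, against 1125 to 1307 in controls, without overlap, but without Gfap, a step chosen after seeing the data, they summed to 748 to 786 in GnRH arrays, against 762 to 883 in controls, and overlapped. Gfap, a glial filament, had a difference of -1.97 (limma adjusted p = 0.0835) and the adhesion protein Cdh1 -0.37 (0.158) on its brightest probe set, while S100b had 0.15, Sox2 0.018 and Aldh1a1 -0.10. The sums of the other 8 lists overlapped. No marker was at 0, and Gh1, Prl, Lhb, Cga and Tshb, which define hormone cells of the pituitary, were among its bright signals in both groups. Whether cell makeup has a part in the clock values was not tested. In whole-organ RNA, more cells of a type and more RNA per cell cannot be told apart.

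Nr1d2, a repressor of Bmal1, had differences above 0 on all 3 of its probe sets, but control 3 stood with the GnRH arrays on the brighter ones and no probe set passed the test. The brightest (1370541_at) had 8.005, 8.17 and 8.48 in the GnRH arrays, against 7.34, 7.76 and 8.24 in controls 1, 2 and 3. Control 3 there was above GnRH 1 and GnRH 2. The difference was 0.44 ± 0.20 (SE), with a 95% interval of -0.0039 to 0.88 (limma adjusted p = 0.411). The next (1390430_at) had 7.49, 7.34 and 7.77 with GnRH, against 6.97, 7.22 and 7.62 in controls. The means differed by 0.26 ± 0.16 (limma adjusted p = 0.539). The dimmest (1370540_at) had 4.84, 5.19 and 4.99, against 4.61, 4.57 and 4.76. GnRH minus control came to 0.36 ± 0.11 (limma adjusted p = 0.225). On this probe set the groups did not overlap, and control 3 was again the highest control.

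The Nr1d2 values depended on single arrays. Without control 3, where treatment and the Xist split cannot be told apart, the brightest and the dimmest probe sets passed at 0.67 (limma adjusted p = 0.0257) and 0.42 (0.0430), and the middle one had 0.44 (0.0651). Against control 3 alone the same probe sets, in that order, had -0.022, 0.24 and -0.086 (limma adjusted p = 0.983, 0.616 and 0.914). Without control 1 the brightest and the middle one had 0.22 and 0.12 (0.775 and 0.884), and without GnRH 3 the middle one had 0.15 (0.855). With the 3 probe sets averaged into 1 value the gene had a difference of 0.35 ± 0.14 (limma adjusted p = 0.339 over 14217 genes).

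Nr1d1, the other receptor of this pair, had groups that overlapped. It had 7.25, 7.41 and 7.53 in the GnRH arrays, against 7.39, 7.46 and 7.46 in controls (1370816_at). The means differed by -0.040 ± 0.095 (limma adjusted p = 0.896). The 95% interval was -0.25 to 0.17, and the difference was -0.029 without control 3 and -0.061 against control 3 alone. Whether Nr1d1 and Nr1d2 differ in their response was not tested.

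Bmal1, the activator that NR1D and ROR receptors are known to regulate through an element of the kind in capitals in its promoter, had 7.57, 7.61 and 7.55 in the GnRH arrays, against 7.64, 7.36 and 7.69 in controls (1370510_a_at). The GnRH arrays lay within the range of the controls. The difference was 0.011 ± 0.10 (SE), with a 95% interval of -0.22 to 0.24 (limma adjusted p = 0.977). It was 0.073 without control 3 and turned to -0.11 against control 3 alone and to -0.0066 and -0.089 without GnRH 2 or control 2, none of them past the threshold.

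**Figure D3:**
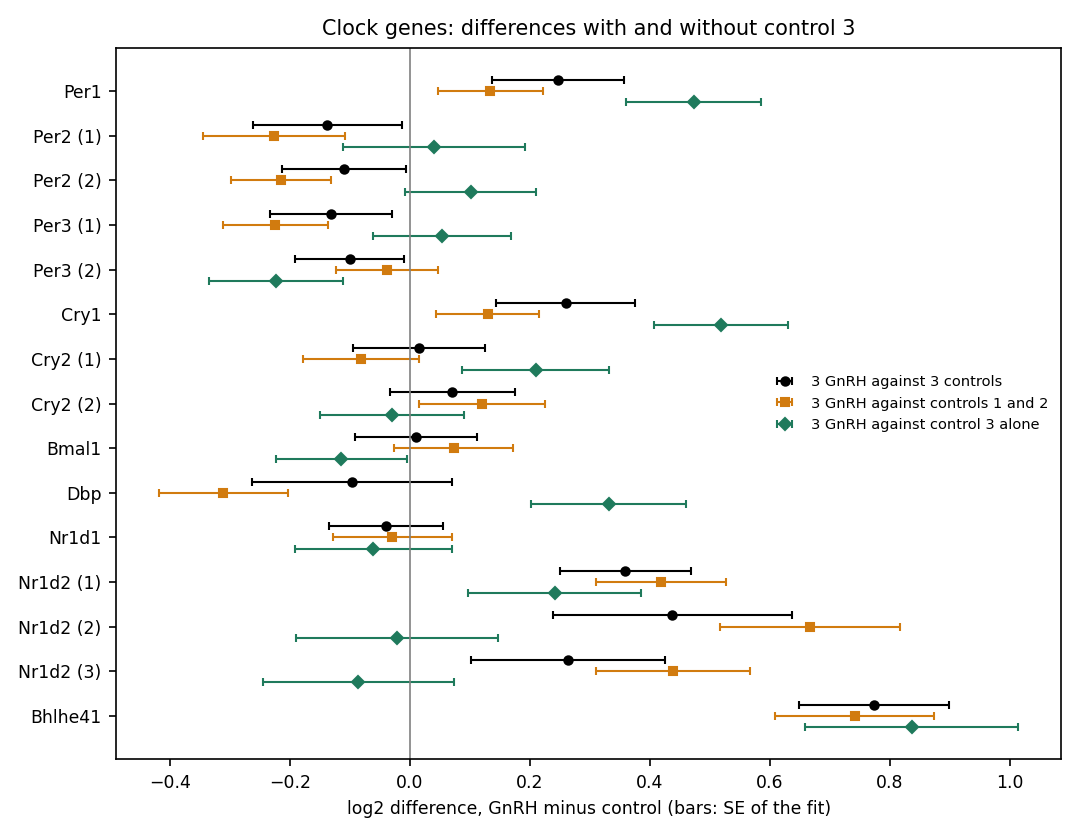
Log2 difference (GnRH minus control) of each clock probe set with its SE from the fit, with all controls (black circles), with controls 1 and 2 (orange squares) and with control 3 alone (green diamonds). Bhlhe41 lies at 0.77, 0.74 and 0.84, whereas Dbp lies at -0.10, -0.31 and 0.33 and the brightest Nr1d2 probe set at 0.44, 0.67 and -0.022.

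Per1, the period gene known for direct induction by hormones, and Cry1, which encodes a partner inhibitor, had differences above 0 that did not pass the test, and had nearly the same pattern over the 6 arrays. Per1 (1374855_at) had 7.97, 7.86 and 7.88 in the GnRH arrays, against 7.72, 7.83 and 7.43 in controls 1, 2 and 3. Cry1 (1392640_at) had 6.56, 6.46 and 6.49, against 6.33, 6.42 and 5.98. In both genes the GnRH arrays lay just above control 2, and control 3 was the lowest array. The differences were 0.25 ± 0.11 (SE) for Per1 and 0.26 ± 0.12 for Cry1 (limma adjusted p = 0.401 and 0.404). Without control 3 they were 0.13 in each (limma adjusted p = 0.367 and 0.376), and against control 3 alone 0.47 and 0.52 (0.112 and 0.0803).

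Cry1 had the values closest to those of Per1 among 15621 probe sets of other named genes whose SD was at least 0.5 times that of Per1, with a root mean square difference of 0.020 over the 6 arrays. The next were Prrt1 (0.033, 1 of its probe sets), Sbf1 (0.034) and Nacc2 (0.036). In all 4, control 3 was the lowest array and the GnRH arrays were at or above control 2, except that GnRH 2 of Prrt1 was at 6.42 and control 2 at 6.44. The arrays fall into separate clusters, so no correlation is given.

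Genes known to respond to the same signals as Per1 were set beside it. Of 16 probe sets of 8 cAMP- and calcium-responsive genes 0 passed the test with limma, where 0.464% of all did, 7 had an unadjusted p under 0.05 and all 7 of these were higher with GnRH, where 6.6% of all were. The median difference of the 16 was 0.19. Without control 3, 4 passed, all higher with GnRH, where 7.44% of all passed and 4.95% were higher. In that fit 5 had differences below 0, those of Egr1 (-0.25), Fosb (-0.21), both Fos probe sets (-0.079 and -0.033) and 1 Crem probe set (-0.37). Against control 3 alone the differences of these 5 were above 0, from 0.044 to 1.55, as were those of the rest of the 16. The largest were those of Fosb (1.55), Nr4a1 (1.22) and Junb (1.203), so large differences were not limited to the fit without control 3. Only sizes are given here, as a lone control shows no spread of its own. With all 6 arrays, the genes of this list with the smallest p-values were the MAP kinase phosphatase Dusp1 (0.43 ± 0.087, limma adjusted p = 0.0723), the kinase Sik1 (0.60 ± 0.15, 0.126) and the orphan receptor Nr4a1 (0.67 ± 0.19, 0.207). Control 3 was the lowest of the 6 arrays in 10 of these 16 probe sets, in 6 of the 15 clock probe sets and in 20.9% of all probe sets. Nr4a1 had 9.62, 9.54 and 9.82 in the GnRH arrays, against 9.28 and 9.23 in controls 1 and 2 and 8.44 in control 3. Of 11 probe sets of 7 glucocorticoid-responsive genes 0 passed with limma, where 0.464% of all did. An unadjusted p under 0.05 was reached by 5, 3 higher and 2 lower, where 12.3% of all reached it. Without control 3, 4 of the 11 passed, where 7.44% of all did. Against control 3 alone the differences of the 11 ran from -0.38 (Errfi1) to 0.78 (Klf9, 1387882_at). With all 6 arrays, Errfi1, an inhibitor of the EGF receptor, had -0.47 ± 0.11 (limma adjusted p = 0.118). In the same fit the transcription factor Klf9 had 0.44 ± 0.11 (0.133) and the pyruvate dehydrogenase kinase Pdk4 0.50 ± 0.12 (0.138).

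Per2 and Per3, the other period genes, had a GnRH mean below controls 1 and 2 on all 4 of their probe sets, and control 3 was below controls 1 and 2 on 3 of the 4. The brighter Per2 probe set (1378560_at) had 7.97, 8.01 and 7.96 in the GnRH arrays, against 8.22, 8.16 and 7.88 in controls. GnRH minus control came to -0.11 ± 0.10 (SE) (limma adjusted p = 0.704). The other (1368303_at) had 6.96, 6.96 and 7.30, against 7.22, 7.39 and 7.04. The means differed by -0.14 ± 0.12 (limma adjusted p = 0.687). On this probe set GnRH 3 lay between controls 1 and 2 and the other GnRH arrays lay below all controls. The brighter Per3 probe set (1378745_at) had 6.96, 6.88 and 7.03, against 7.18, 7.18 and 6.90. GnRH minus control came to -0.13 ± 0.10 (limma adjusted p = 0.636). The dim one (1388239_at, level percentile 9.55 among all probe sets) had 3.81, 3.81 and 3.90, against 3.84, 3.91 and 4.06. The means differed by -0.10 ± 0.091 (limma adjusted p = 0.692). None of the 4 passed without control 3, where the differences ran from -0.23 to -0.038 (limma adjusted p from 0.139 to 0.807), and 3 of the 4 were above 0 against control 3 alone, from 0.040 to 0.10, where the dim Per3 probe set had -0.22.

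Dbp, the D-box activator that follows the clock with a strong rhythm in many tissues, had controls that lay farther apart than the group means. It had 6.66, 6.40 and 6.51 in the GnRH arrays, against 6.95, 6.72 and 6.19 in controls 1, 2 and 3 (1387874_at), with a mean of 6.52 ± 0.13 with GnRH and 6.62 ± 0.39 in controls (SD, n = 3 each). All 3 GnRH arrays lay between control 3 and controls 1 and 2. The difference was -0.097 ± 0.17 (SE) (limma adjusted p = 0.846). It was -0.31 without control 3 (limma adjusted p = 0.102), 0.33 against control 3 alone (0.368) and 0.067 without control 1 (0.939). Control 3 lay 0.64 below the mean of controls 1 and 2.

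Cry2, the second cryptochrome, had overlapping groups on both probe sets. One (1369446_at) had 7.25, 7.39 and 7.17 in the GnRH arrays, against 7.42, 7.28 and 7.06 in controls, and the other (1372548_at) had 7.03, 6.94 and 7.13, against 6.78, 7.05 and 7.06. The differences were 0.016 ± 0.11 and 0.071 ± 0.10 (SE) (limma adjusted p = 0.968 and 0.818). Control 3 was the lowest array on the first and the second highest on the other, so the probe sets of this gene did not follow each other. Without control 3 the differences were -0.081 and 0.12, and against control 3 alone 0.21 and -0.029.

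Among the 14 clock probe sets that did not pass, the 95% interval of the difference lay inside a 1.5-fold change either way for 11, and reached beyond it for 3, all of Nr1d2. In data simulated for this comparison over 31042 probe sets, 26 of 50 changes of 0.58 on the log2 scale were recovered and 50 of 50 changes of 1, so smaller changes would often be missed with 3 arrays a group. The simulated noise was independent between arrays and held no control 3 split. These rates may therefore not hold for probe sets whose controls were widely spread, such as Nr1d2 (1370541_at, SE 0.20) and Dbp (SE 0.17), where the median SE of all was 0.10.

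Beyond the members, 65 probe sets of 30 other clock genes were measured and 0 passed the test with limma, where 0.464% of all did. Their median difference was -0.0060, with 31 above 0 and 34 below. At an unadjusted p under 0.05 there were 6, 1 higher and 5 lower, and the groups did not overlap in 5 (7.69%, against 16.7% of all probe sets). Clock, the partner of BMAL1, had differences from -0.056 to 0.099 on 4 probe sets (limma adjusted p from 0.757 to 0.898). Npas2, which can replace CLOCK, had 5.72, 5.89 and 5.68 in the GnRH arrays, against 5.64, 5.80 and 5.51 in controls. GnRH minus control came to 0.12 ± 0.10 (limma adjusted p = 0.681), 0.048 without control 3 and 0.26 against control 3 alone.

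The 6 other clock genes with the lowest p-values were Rorb, Ncor1, Rora, Prkaa2, Csnk2a1 and Nono, none of them past the test. Rorb had 5.49, 5.00 and 5.22 in the GnRH arrays, against 5.81, 5.88 and 5.41 in controls. The means differed by -0.46 ± 0.15 (SE) (limma adjusted p = 0.259). Rora had 5.38, 5.17 and 5.16, against 6.13, 5.54 and 5.46. GnRH minus control came to -0.48 ± 0.16 (limma adjusted p = 0.271). Each of these activators of Bmal1 had a further probe set at -8.3e-05 and -0.015, in that order, so their probe sets did not agree. Ncor1, the corepressor that NR1D receptors recruit, had differences of -0.29 ± 0.096 (limma adjusted p = 0.264), -0.18 ± 0.081 (0.404) and 0.037 ± 0.085 (0.892) on 3 probe sets. Prkaa2, a catalytic subunit of the AMP-activated kinase that marks CRY1 for breakdown, had -0.32 ± 0.11 (0.301), the casein kinase subunit Csnk2a1 0.34 ± 0.13 (0.330) on 1 probe set but -0.21 to -0.0098 on its 4 others, and the PER partner Nono 0.23 ± 0.12 (0.481).

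Without control 3 the test was passed by 6 of these 65 probe sets, where 7.44% of all passed and where treatment and the Xist split cannot be told apart. Those of Rorb (-0.61), Rora (-0.60), Prkaa2 (-0.43) and Ncor1 (-0.35) were lower in the GnRH arrays than in controls 1 and 2 and those of Nono (0.38) and Fbxw7 (0.61) higher, with limma adjusted p from 0.00583 to 0.0475. Fbxw7, a ubiquitin ligase subunit, is named because it was among the 6 and was chosen after its values were seen. Against control 3 alone the sign of the difference was not that found without control 3 in 39 of the 65, as in 9 of the 15 clock probe sets. The share of all probe sets whose sign turned was not computed, so these counts are not read as a trait of clock genes. Control 3 lay outside controls 1 and 2 on the side of the GnRH mean in 63.7% of all probe sets.

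**Figure D4:**
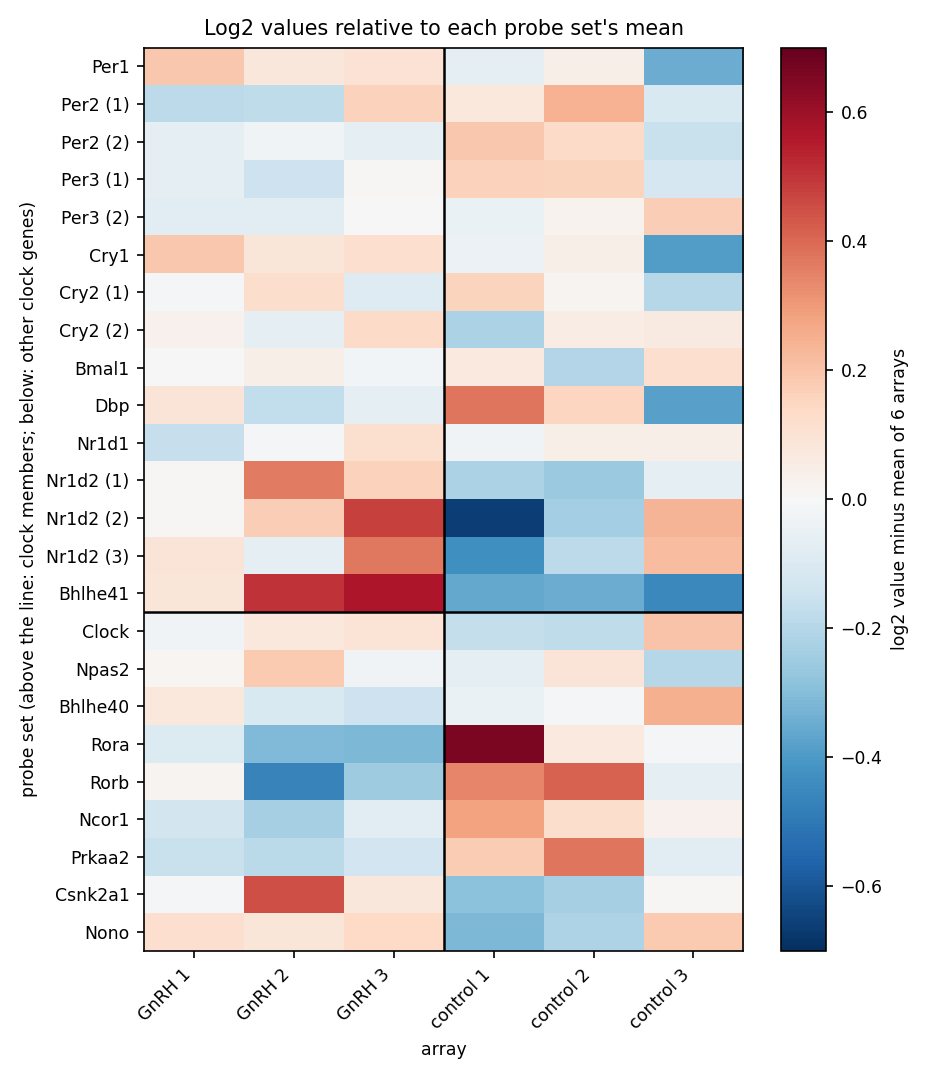
Log2 values of the clock probe sets (above the line) and of 9 other clock genes on their probe set with the smallest p-value (below it), each minus its mean over the 6 arrays; red is above and blue below that mean, and GnRH arrays are left of controls. Bhlhe41 is red in all GnRH arrays and blue in all controls, Per1 and Cry1 share a column pattern with control 3 lowest, and Rora and Rorb are blue in most GnRH arrays.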

How the data were processed

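Transcripts of 6 rat pituitary organ cultures were measured on 1-colour arrays, 1 per sample. The deposited intensity values are on a linear scale and were produced by RMA (per the submitters' processing notes); the sources used here give neither its software and version nor any filter. The table held 31042 probe sets and no detection calls. Symbols came from the supplied array annotation, updated by gene identifier against the GRCr8 gene table; 20826 probe sets had 1 symbol and 10216 were left unnamed. Log2 of the deposited intensity, with no pseudocount, was compared between groups with lmFit and eBayes of limma 3.58.1 (R 4.3.3), 2-sided and with no covariate, with Benjamini-Hochberg adjustment over all probe sets. The members, the gene lists and the rule for named genes were chosen with earlier results of these data known. The rule named all members, Clock, Npas2, Bhlhe40, up to 6 other clock genes and 3 per inducible list by smallest p, and the 4 genes closest to Per1 and Bhlhe41. On simulated data for 31042 probe sets, made without the control 3 split, 13 of 30842 unchanged ones were called. The number of arrays limits the precision. Alternatives varied scaling, filtering, pseudocount, variance model, weights, pairing, samples and threshold.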

Additional observations from a re-analysis of the deposited data

How the results depend on the processing

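Bhlhe41 stayed higher with GnRH under all 17 alternatives, from 0.68 to 0.92, but passed in 10 of them, and 4 of the 6 arrays each ended its call when left out. Of 15 clock probe sets, 0 passed with cyclic loess, with 16 added to each intensity and against control 3 alone, 2 with array weights, and 0 to 3 with 1 array left out (3 without control 3). Of the other clock probe sets, 5 passed with array weights and 0 to 6 with 1 array left out. Of all probe sets, 90 passed with repeated quantile normalization, 93 with cyclic loess, 74 with 16 added, 3020 with array weights, 265 against control 3 alone, 20 to 2309 with 1 array left out and 341 at an adjusted p under 0.10, and 86 genes with probe sets averaged. Array weights gave control 3 the lowest weight, 0.298, against 2.72 for control 2.

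Signs that turned were of differences that did not pass. With repeated quantile normalization Cry2 (1369446_at) and Bmal1 had -0.027 and -0.030, with cyclic loess -0.0017 and -0.018, and with array weights Cry2 had -0.025. Against control 3 alone the 2 Per2 probe sets had 0.040 and 0.10, Per3 0.054, Cry2 (1372548_at) -0.029, Bmal1 -0.11, Dbp 0.33 and Nr1d2 -0.022 and -0.086. With 1 array left out, the differences ran from -0.081 to 0.098 for Cry2 (1369446_at), from -0.022 to 0.12 for Cry2 (1372548_at), from -0.089 to 0.073 for Bmal1, from -0.31 to 0.067 for Dbp and from -0.11 to 0.032 for Nr1d1. The cause was not tested. Deviations from the group mean of arrays with the same replicate number correlated at 0.159, -0.049 and 0.156. Because the control deviations carry the control 3 split, these values cannot settle whether the replicate numbers pair the samples. With the replicate block 215 probe sets passed, and of the clock members Bhlhe41 alone (0.77, limma adjusted p = 0.0314). The number of arrays limits what could be detected.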
